A study of Rattus norvegicus with 16 samples.

Results

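The cell division cycle was followed here through 46 rat genes of DNA replication and mitosis in hepatoma cells in which *Pdrg1* had been silenced. The genes were taken by name: 17 act in S phase, 26 in G2 and mitosis (G2/M), and 3 in G1 or at a checkpoint. Of the 46, 45 had at least 1 probe on the array (55 probes in all, among the 26269 gene names of the array), and *Mki67* had none. H35 is a cultured rat hepatoma line. All cells had been transfected by Lipofectamine with a SureSilencing shRNA plasmid and selected with G418 at 1.8 mg/ml for 2 weeks. CN-10 is a stable clone that carries the negative control plasmid, 3-44 is a stable clone with shRNA3 against *Pdrg1*, and 4-18 is a stable clone with shRNA4; these 3 had a further 2 weeks at 4 mg/ml. shRNA3T is a pool of shRNA3-transfected cells, labelled transient, that was enriched in the first step only. Each group had 4 biological replicates, and each replicate was 1 one-colour array of 60-base probes. Each construct is represented by 1 clone or 1 pool, so the effect of an shRNA and that of the clone cannot be told apart, and shRNA3T had no control pool of its own stage. Every contrast with CN-10 uses the same 4 CN-10 arrays.

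Dividing cells copy their DNA in S phase and separate the copies in mitosis. Before S phase, the licensing factors Cdc6 and Cdt1 load the Mcm2-7 helicase on origins, and Gins1, as part of the GINS complex, joins the helicase when origins fire. Pcna is the sliding clamp of the polymerases, Rrm1 and Rrm2 are the subunits of ribonucleotide reductase, Tyms and Tk1 supply thymidine nucleotides, and the cyclins Ccne1 and Ccne2 activate Cdk2. Later, Cdk1 with the cyclins Ccna2 and Ccnb1 drives entry into mitosis. The kinases Aurka, Aurkb, Plk1, Nek2 and Ttk, the checkpoint proteins Bub1, Bub1b and Mad2l1, the kinesins Kif11 and Kif20a, and Cdc20 with Ube2c then order spindle assembly, chromosome separation and cytokinesis. S phase genes are classically transcribed through E2F factors. G2/M genes are classically transcribed through the MuvB complex with B-Myb and Foxm1, at an element called the cell cycle genes homology region (CHR), often with CCAAT boxes bound by NF-Y. In the adult liver hepatocytes rarely divide, whereas hepatoma cells in culture cycle continuously.

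RefSeq promoter windows of 300 bases (250 before and 50 after the gene start, rat build GRCr8) were found for 36 of the 45 members, 13 of S phase, 21 of G2/M and 2 of the G1 and checkpoint group. They are shown for 3 S phase and 3 G2/M members on which the comparisons below turn. Capitals mark 3 kinds of word read on both strands: the CHR word TTTGAA, the CCAAT box CCAAT, and the E2F words TTTCCCGC, TTTGGCGC, TTTCGCGC and TTTGCCGC, where the word and its reverse complement can overlap in 1 palindrome and then count as 2 matches.
Mcm3 (chr9:30733697-30733996, minus strand): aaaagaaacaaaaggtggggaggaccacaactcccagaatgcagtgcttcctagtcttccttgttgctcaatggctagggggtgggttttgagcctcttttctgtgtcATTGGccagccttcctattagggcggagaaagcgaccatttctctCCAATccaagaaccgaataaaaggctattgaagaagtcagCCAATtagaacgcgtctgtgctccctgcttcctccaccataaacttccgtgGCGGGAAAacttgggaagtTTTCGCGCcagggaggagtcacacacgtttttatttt
Gins1 (chr3:160184670-160184969, plus strand): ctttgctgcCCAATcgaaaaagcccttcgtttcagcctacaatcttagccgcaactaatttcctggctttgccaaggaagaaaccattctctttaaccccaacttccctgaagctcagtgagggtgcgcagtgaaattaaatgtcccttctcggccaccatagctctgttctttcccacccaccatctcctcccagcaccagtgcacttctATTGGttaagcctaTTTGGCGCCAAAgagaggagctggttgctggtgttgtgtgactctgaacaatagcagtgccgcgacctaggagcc
Tyms (chr9:120776034-120776333, minus strand): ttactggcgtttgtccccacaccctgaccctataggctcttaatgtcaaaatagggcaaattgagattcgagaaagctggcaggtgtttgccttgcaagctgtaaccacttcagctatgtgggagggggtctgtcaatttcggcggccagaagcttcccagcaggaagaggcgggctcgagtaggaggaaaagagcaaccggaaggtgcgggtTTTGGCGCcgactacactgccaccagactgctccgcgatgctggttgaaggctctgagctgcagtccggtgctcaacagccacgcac
Cdk1 (chr20:19265043-19265342, plus strand): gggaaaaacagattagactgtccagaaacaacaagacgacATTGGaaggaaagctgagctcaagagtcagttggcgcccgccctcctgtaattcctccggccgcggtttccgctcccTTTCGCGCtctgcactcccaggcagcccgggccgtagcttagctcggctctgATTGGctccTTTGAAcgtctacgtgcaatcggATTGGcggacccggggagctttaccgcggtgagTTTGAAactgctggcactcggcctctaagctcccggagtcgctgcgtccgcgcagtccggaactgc
Top2a (chr10:84473044-84473343, minus strand): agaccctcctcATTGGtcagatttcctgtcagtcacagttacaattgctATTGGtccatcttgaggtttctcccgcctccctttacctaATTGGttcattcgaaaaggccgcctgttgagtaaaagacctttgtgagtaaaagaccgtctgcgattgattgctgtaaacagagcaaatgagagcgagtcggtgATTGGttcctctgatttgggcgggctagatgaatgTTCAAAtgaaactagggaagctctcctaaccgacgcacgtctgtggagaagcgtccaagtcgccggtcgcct
Ccnb1 (chr2:33655176-33655475, minus strand): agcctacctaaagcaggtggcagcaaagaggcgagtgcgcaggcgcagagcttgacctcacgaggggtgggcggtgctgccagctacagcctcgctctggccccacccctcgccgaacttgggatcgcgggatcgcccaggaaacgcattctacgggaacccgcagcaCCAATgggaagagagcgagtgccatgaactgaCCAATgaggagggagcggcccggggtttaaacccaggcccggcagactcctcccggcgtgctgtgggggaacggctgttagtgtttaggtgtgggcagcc

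The CHR word lay in 15 of 21 G2/M windows (71.4%) and in 1 of 13 S phase windows (7.69%), against 18.35% of all 33469 rat windows. An E2F word lay in 8 of 13 S phase windows (61.5%) and in 1 of 21 G2/M windows (4.76%), that of *Cdk1*, against 2.139% of all windows. CCAAT lay in 8 of 13 S phase windows (61.5%), in 17 of 21 G2/M windows (81.0%) and in 37.49% of all windows. In these sequences *Mcm3* carried 2 E2F words close to its start and 3 CCAAT boxes. *Gins1* carried the palindrome TTTGGCGCCAAA, and *Tyms* 1 E2F word and neither of the other words. *Cdk1* was the only window of the 6 with all 3 kinds of word, *Top2a* had 4 CCAAT boxes and 1 CHR word, and *Ccnb1* had 2 CCAAT boxes without the CHR word. A match is a description of the letters in the window and was not tested as a binding site.

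All values are normalized log2 intensities of the brightest probe of a gene, and a gene passed a contrast when its adjusted p by limma, over all 30367 probes, was under 0.05. The arrays of 4-18 were the dimmest, with a 75th percentile of mean signal of 1614 to 1946 against 2328 to 3692 over the other groups, and 53.1% to 64.1% of their spots were well above background against 64.7% to 74.3%. In the table deposited with the series, which is used below as an alternative and is not scaled between arrays, 4-18 replicate 4 stood apart, with a median log2 value of 8.90 against 7.23 to 7.49 on the other 4-18 arrays and 7.61 to 8.05 in the other groups. The 4 arrays of a group shared 1 slide, and that of 4-18 had a scan day different from the rest, so that group and slide cannot be told apart. All 10 hepatocyte and hepatoma markers, *Alb*, *Afp* and *Hnf4a* among them, were well above background on every array of CN-10, 3-44 and shRNA3T and 8 of them on every array of 4-18. Their summed intensity ranged from 195377 to 430446 in CN-10, from 184028 to 693230 in 3-44, from 308923 to 550177 in shRNA3T and from 287111 to 435643 in 4-18. Markers of other cell types were low: no list of leukocyte, fibroblast, endothelial or bile duct genes summed to more than 3418 on any array, and *Ptprc*, which defines leukocytes, was well above background on none of the 16 arrays. The leukocyte sum (*Ptprc*, *Cd68* and *Lyz2*) was 1218 to 1477 in CN-10, 2842 to 3418 in 3-44, 290.2 to 2823 in shRNA3T and 742.0 to 1029 in 4-18. A spot set aside as an outlier adds nothing to a sum, so a low sum of any list can come from a missing spot. The part of these differences in sums and of the dimmer signal of 4-18 in the results was not tested. *Pdrg1* itself (probe at chr3:143353382-143353441, rn4) lay between 13.41 and 13.88 in CN-10, between 11.89 and 12.95 in 3-44, between 12.39 and 12.97 in shRNA3T, and read 11.57, 13.33, 13.34 and 13.25 in 4-18. Replicate 1 was the lowest *Pdrg1* array of all 4 groups. No silenced array of *Pdrg1* reached the CN-10 range, and an exact permutation test (two-sided) gave p = 0.0286 in each silenced group, which is the least that 4 arrays against 4 can give. The limma differences, -0.77, -0.99 and -0.85 for 4-18, 3-44 and shRNA3T, did not pass (adjusted p = 0.129, 0.105 and 0.143). Without 4-18 replicate 1 the difference in 4-18 was -0.33, so its size rests largely on that array, and without it the differences in 3-44 and shRNA3T passed at the same size (adjusted p = 0.0086 and 0.0149).

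Relative to CN-10, most members were low on the arrays of shRNA3T and 4-18 and near the CN-10 level on those of 3-44. The median SD of a member over the arrays of 1 group was 0.158 in CN-10, 0.232 in 3-44, 0.227 in shRNA3T and 0.310 in 4-18. In these bulk cultures, fewer cycling cells and less of each transcript per cycling cell cannot be told apart.

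**Figure D1:**
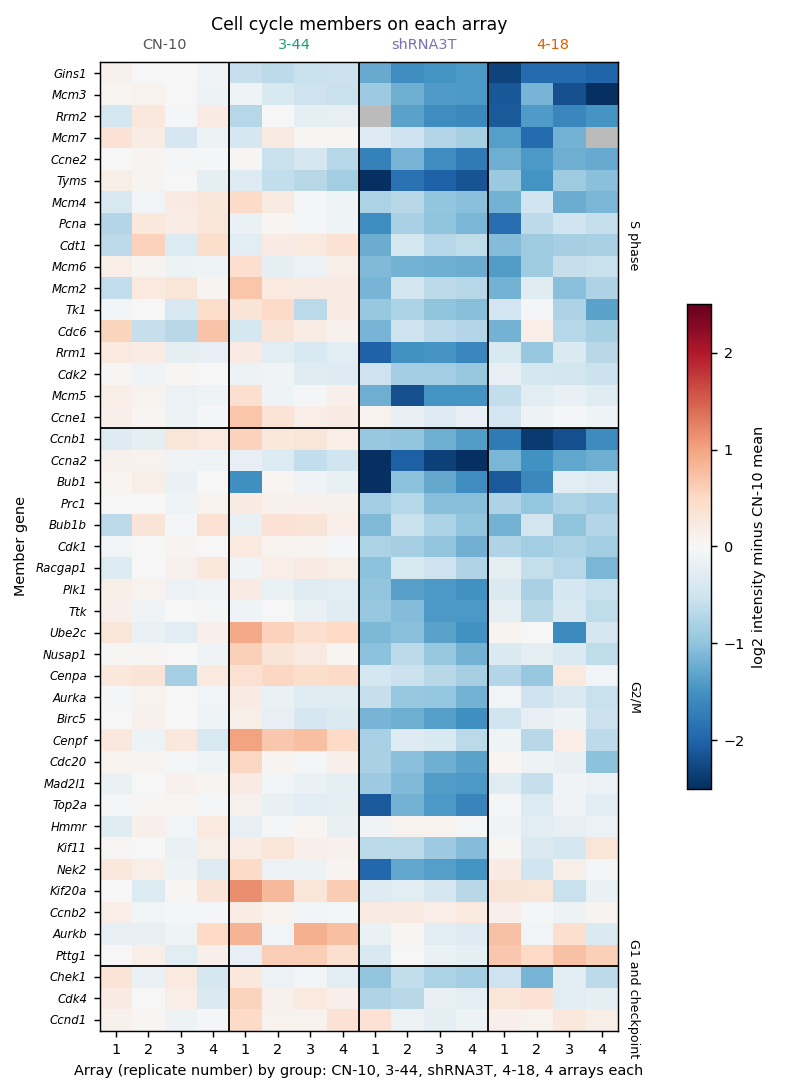
Log2 intensity of the 45 members (each line a gene, S phase above G2/M and the G1 and checkpoint group) on the 16 arrays, minus the mean of the 4 CN-10 arrays, with grey for a spot set aside as an outlier. Most lines are below the CN-10 mean on all 4 shRNA3T arrays and on most 4-18 arrays, and the 3-44 arrays lie near the CN-10 arrays.

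In 4-18, most DNA replication members were lower. Compared with CN-10, 13 of the 17 S phase members were lower and none was higher, 9 of 25 G2/M members were lower and 1 was higher, and *Chek1*, the kinase of the replication checkpoint, was lower (-0.65; from -0.57 to -0.48 and not passing without CN-10 replicate 1 or 3 or 4-18 replicate 2). Of all gene names 12.4% were lower in 4-18 (19.0% of those well above background) and 11.6% were higher. Over the 45 members this is 23 lower, or 51.1%, and 1 higher. At 2-fold or more, 9 members were lower and none was higher, against 6.15% of all gene names in either direction.

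At the brightest probe of each gene, *Gins1* (probe at chr3:141557234-141557293, rn4) showed the largest difference from CN-10 of any member in 4-18. Its log2 intensity was 12.28, 12.18, 12.16 and 12.09 on the CN-10 arrays and 9.87, 10.26, 10.25 and 10.18 on the 4-18 arrays. On the 3-44 arrays it was 11.61, 11.53, 11.62 and 11.64, and on the shRNA3T arrays 10.92, 10.62, 10.68 and 10.75. The 4 groups did not overlap anywhere, in the order CN-10, 3-44, shRNA3T, 4-18. The log2 difference from CN-10 was -2.04 ± 0.09 (SE) in 4-18, a 4.10-fold lower level (adjusted p = 7.49e-10 by limma), -1.44 ± 0.09 in shRNA3T (adjusted p = 1.29e-07) and -0.58 ± 0.09 in 3-44 (adjusted p = 0.000932). *Gins1* was the only member that passed in all 3 silenced groups, and it also passed between each pair of them. Its call in 3-44 was lost with arrays set to a common median of bright probes (-0.59, adjusted p = 0.0912) and in the deposited, unscaled table (-0.73, adjusted p = 0.268), where 3-44 against shRNA3T did not pass either (0.66, adjusted p = 0.284).

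Of the 6 Mcm helicase subunits 5 were lower in 4-18. *Mcm3* (chr9:19536947-19537006, rn4) read 15.30, 15.34, 15.23 and 15.11 in CN-10 and 13.12, 14.09, 13.05 and 12.59 in 4-18. It read 15.13, 14.86, 14.73 and 14.68 in 3-44 and 14.33, 14.02, 13.83 and 13.81 in shRNA3T. The 4-18 arrays lay below all CN-10 and 3-44 arrays, by 2.03 ± 0.23 (SE) against CN-10, which is a difference of 4.09-fold (adjusted p = 1.32e-05 by limma). A dimmer second probe of *Mcm3* gave -1.09 for the same contrast. *Mcm7* (chr12:17607251-17607310, rn4) read 15.94, 15.78, 15.17 and 15.46 in CN-10 and 14.21, 13.67 and 14.40 on the 3 usable 4-18 arrays, the fourth spot being an outlier that was set aside. It read 15.17, 15.82, 15.61 and 15.61 in 3-44 and 15.26, 15.06, 14.86 and 14.76 in shRNA3T. Thus *Mcm7* was lower in 4-18 by 1.5 ± 0.21 (adjusted p = 0.000152), while its difference of -0.60 ± 0.20 in shRNA3T did not pass (adjusted p = 0.0693). It passed in shRNA3T without CN-10 replicate 3 (-0.74, adjusted p = 0.032) or without 4-18 replicate 2 (adjusted p = 0.0418). *Mcm2* (chr4:122978031-122978090, rn4) had less separation. Its CN-10 arrays read 12.35, 13.20, 13.25 and 13.03 and its 4-18 arrays 11.77, 12.66, 11.92 and 12.18, so that replicate 2 of 4-18 lay above replicate 1 of CN-10. The 3-44 arrays read 13.64, 13.21, 13.19 and 13.17 and the shRNA3T arrays 11.79, 12.50, 12.31 and 12.24. *Mcm2* passed in 4-18 (-0.82 ± 0.22, adjusted p = 0.0142, but 0.0536 with the 8 arrays of the 2 groups alone and 0.112 without 4-18 replicates 1 and 4), as did *Mcm4* (-1.02, adjusted p = 0.000882) and *Mcm6* (-0.86, adjusted p = 0.00168). *Mcm5* did not pass (-0.35, adjusted p = 0.192), although it did with signals scaled at the 75th percentile (-0.76) and in the deposited table (-1.05).

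Of the 4 members that supply nucleotides, 3 were lower in 4-18 and *Tk1* did not pass. *Rrm2*, the regulatory subunit of ribonucleotide reductase (chr6:42359210-42359269, rn4), read 16.46, 17.16, 16.86 and 17.10 in CN-10 and 14.79, 15.47, 15.26 and 15.43 in 4-18. It read 16.19, 16.88, 16.64 and 16.69 in 3-44 and 15.56, 15.34 and 15.28 on the 3 usable shRNA3T arrays (replicates 2 to 4). Its level was 3.15-fold lower in 4-18 than in CN-10 (-1.66 ± 0.19, adjusted p = 1.81e-05 by limma), without overlap. A dimmer second probe of *Rrm2* gave -2.09 (adjusted p = 8.15e-07 by limma), beyond the -2.04 of *Gins1*. *Tyms*, thymidylate synthase (chr9:112605733-112605792, rn4), read 12.04, 11.96, 11.89 and 11.67 in CN-10, 10.96, 10.41, 11.00 and 10.85 in 4-18, 11.58, 11.28, 11.19 and 11.02 in 3-44, and 8.49, 10.02, 9.87 and 9.74 in shRNA3T. All silenced arrays were below all CN-10 arrays, and the order differed from that of *Gins1*, with shRNA3T lowest. *Tyms* was lower in 4-18 (-1.09 ± 0.26, adjusted p = 0.00664) and lower still in shRNA3T (-2.36 ± 0.26, adjusted p = 2.69e-05). It did not pass in 3-44 (-0.62, adjusted p = 0.194). In 3-44 it passed without shRNA3T replicate 1 (adjusted p = 0.0148).

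*Pcna*, the polymerase clamp (chr3:120008997-120009056, rn4), showed how much a single array can carry. It read 13.37, 14.36, 14.29 and 14.40 in CN-10, 13.94, 14.16, 14.05 and 13.99 in 3-44, 12.54, 13.29, 13.09 and 12.96 in shRNA3T, and 12.19, 13.44, 13.61 and 13.51 in 4-18. Replicate 1 was the lowest *Pcna* array of all 4 groups, and 3 of the 4-18 arrays lay above CN-10 replicate 1. *Pcna* passed in 4-18 (-0.91 ± 0.29, adjusted p = 0.0322 by limma). It also passed for the pool shRNA3T (-1.13 ± 0.29, adjusted p = 0.018). The call in 4-18 was lost without CN-10 replicate 2, 3 or 4 (-0.83, -0.85 and -0.81) or 4-18 replicate 1 (-0.58), with adjusted p from 0.0781 to 0.088. That in shRNA3T was lost without CN-10 replicate 2, 3 or 4 (-1.05, -1.07 and -1.03) or shRNA3T replicate 1 (-0.99), with adjusted p from 0.0523 to 0.0596. *Cdk2*, the S phase kinase (chr7:2000436-2000495, rn4), had the smallest passing difference of the S phase members in 4-18. It read 11.39, 11.26, 11.40 and 11.37 in CN-10, 11.15, 10.92, 10.90 and 10.82 in 4-18, 11.23, 11.26, 11.06 and 11.03 in 3-44, and 10.83, 10.50, 10.49 and 10.40 in shRNA3T. The 4-18 arrays were all below the CN-10 arrays by a small margin (-0.41 ± 0.10, adjusted p = 0.00698). Of the other S phase members, *Ccne2* (-1.29), *Cdt1* (-0.90) and *Rrm1* (-0.61) passed, and *Tk1* (-0.66), *Cdc6* (-0.64) and *Ccne1* (-0.19) did not. Without CN-10 replicate 1 or 2 or 4-18 replicate 2, *Rrm1* no longer passed (-0.54 to -0.49), and without 4-18 replicate 2 *Tk1* passed (-0.86). *Cdt1* did not pass with arrays set to a common median of bright probes (-0.49, adjusted p = 0.222 by limma) or in the deposited table (-1.20, adjusted p = 0.0504).

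Mitotic members of 4-18 were split in their calls, while 22 of the 25 lay below the CN-10 mean and 3 above it. In simulated data, 13 of 100 changes of 0.5 log2 were recovered in this contrast, so a member that did not pass may still differ. *Ccnb1*, the cyclin of mitotic entry (probe within chr2:31574809-31575048, rn4), had the largest difference among the mitotic members. It read 12.49, 12.59, 13.11 and 13.07 in CN-10, 13.39, 13.07, 13.12 and 12.98 in 3-44, 11.87, 11.82, 11.59 and 11.41 in shRNA3T, and 11.04, 10.43, 10.62 and 11.23 in 4-18. The 4-18 arrays lay below every other array, 3.95-fold below CN-10 (-1.98 ± 0.19, adjusted p = 1.98e-06 by limma). Its partner *Cdk1* (chr20:20043755-20043814, rn4) read 15.48, 15.56, 15.62 and 15.54 in CN-10 and 14.80, 14.69, 14.77 and 14.69 in 4-18. It read 15.80, 15.63, 15.62 and 15.52 in 3-44 and 14.77, 14.73, 14.56 and 14.35 in shRNA3T. *Cdk1* was thus lower in 4-18 (-0.81 ± 0.09, adjusted p = 9.96e-06), and its difference in shRNA3T was of like size (-0.95 ± 0.09, adjusted p = 6.4e-06). *Ccna2*, the cyclin of S phase and G2 (chr2:123062781-123062840, rn4), was lower by 1.29 ± 0.14 in 4-18 (adjusted p = 5.88e-06). Smaller passing differences were found for *Plk1* (-0.53), *Ttk* (-0.49) and *Nusap1* (-0.40), and larger ones for *Prc1* (-0.85), *Bub1b* (-0.84) and *Racgap1* (-0.68).

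The arrays of *Plk1*, *Ttk* and *Nusap1* show the size of these differences. *Plk1*, polo-like kinase (chr1:181012641-181012700, rn4), read 14.42, 14.37, 14.12 and 14.17 in CN-10, 13.91, 13.46, 13.85 and 13.72 in 4-18, 14.47, 14.10, 13.96 and 14.00 in 3-44, and 13.28, 12.92, 12.84 and 12.76 in shRNA3T. *Ttk*, the spindle checkpoint kinase (chr8:88944281-88944340, rn4), read 12.19, 11.96, 12.06 and 11.99 in CN-10, 11.80, 11.37, 11.66 and 11.41 in 4-18, 11.95, 12.03, 11.88 and 11.75 in 3-44, and 11.11, 10.97, 10.62 and 10.61 in shRNA3T. *Nusap1*, a spindle-associated protein (chr3:106164775-106164834, rn4), read 12.62, 12.62, 12.60 and 12.50 in CN-10, 12.22, 12.34, 12.22 and 11.94 in 4-18, 13.19, 12.92, 12.82 and 12.64 in 3-44, and 11.56, 11.94, 11.64 and 11.41 in shRNA3T. For each of these 3 genes 4-18 lay between CN-10 and shRNA3T, with no overlap between these 3 groups, although *Nusap1* nearly touched (11.94 in both 4-18 and shRNA3T). The call of *Nusap1* in 4-18 (adjusted p = 0.0298 by limma) was lost without CN-10 replicate 1, 2 or 3 (-0.39, -0.39 and -0.40) or 4-18 replicate 4 (-0.33), with adjusted p from 0.0627 to 0.0878.

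*Pttg1* (securin, which holds back separase until anaphase, chr10:28527480-28527539, rn4) went the other way. It read 14.09, 14.27, 13.82 and 14.24 in CN-10, 14.78, 14.60, 14.84 and 14.70 in 4-18, 13.90, 14.72, 14.72 and 14.50 in 3-44, and 13.72, 14.08, 13.93 and 13.86 in shRNA3T. All 4-18 arrays were above all CN-10 and all shRNA3T arrays. The rise over CN-10 was 0.63 ± 0.16 (1.55-fold, adjusted p = 0.00904 by limma). In the deposited table, where arrays were not scaled to each other, the same difference was -0.07 and did not pass. There the gene names well above background on all 16 arrays lay at -0.54 in the median, and *Pttg1* was 0.47 above them. With the arrays of that table set to a common median of bright probes *Pttg1* was higher by 0.64 and passed. The gene names well above background on all 16 arrays then lay at 0.16 in the median. Over all gene names, however, the median was 0.13 in the deposited table and 0.84 after that shift, and *Pttg1* lay below it in each. The other 15 G2/M members, *Aurka*, *Cdc20*, *Kif11*, *Mad2l1* and *Birc5* among them, did not pass in 4-18, with differences from -1.09 (*Bub1*) to 0.18 (*Aurkb*). With signals scaled at the 75th percentile *Aurkb* was lower instead (-0.84, adjusted p = 0.031 by limma). *Aurka* (-0.37) passed without 3-44, shRNA3T or 4-18 replicate 1, and *Birc5* (-0.34) without 3-44 replicate 1 or 4-18 replicate 3, with adjusted p from 0.0269 to 0.0444.

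In shRNA3T most members of both S phase and G2/M were lower. Compared with CN-10, 13 of 17 S phase members, 18 of 25 G2/M members and *Chek1* were lower, 32 of 45 or 71.1%, and no member was higher. The deposited, unscaled table had 16 members lower and none higher. Of all gene names 7.04% were lower in shRNA3T (11.1% of those well above background) and 5.13% were higher. At 2-fold or more 20 members were lower, 9 of S phase and 11 of G2/M, against 2.39% of all gene names in either direction.

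*Ccna2* had the largest difference of this contrast. It read 14.28, 14.25, 14.07 and 14.06 in CN-10, 11.45, 12.13, 11.83 and 11.63 in shRNA3T, 13.97, 13.82, 13.56 and 13.66 in 3-44, and 13.03, 12.65, 12.87 and 12.95 in 4-18. At this brighter of its 2 probes the groups lay in the order CN-10, 3-44, 4-18, shRNA3T without overlap, and shRNA3T was 5.30-fold below CN-10 (-2.41 ± 0.14, adjusted p = 3.54e-08 by limma). The other probe did not separate 4-18 from shRNA3T, as given below. The difference of -0.41 in 3-44 at the brighter probe did not pass (adjusted p = 0.0831), although it did without shRNA3T replicate 2 (adjusted p = 0.0451). *Tyms* (5.14-fold), *Bub1* (3.31-fold), *Rrm1* (3.15-fold), *Mcm5* (3.05-fold) and *Top2a* (3.01-fold) followed. *Mcm5*, which had not passed in 4-18, read 11.54, 11.46, 11.23 and 11.27 in CN-10 and 10.15, 9.17, 9.88 and 9.87 in shRNA3T (adjusted p = 2.68e-05).

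*Bub1*, a kinetochore checkpoint kinase (chr3:115324612-115324671, rn4), had the largest SD between replicates of any member in each silenced group (0.742 in 3-44, 0.911 in shRNA3T and 0.910 in 4-18), but not in CN-10 (0.126). It read 13.44, 13.53, 13.23 and 13.38 in CN-10, 11.85, 13.45, 13.31 and 13.21 in 3-44, 10.34, 12.36, 12.12 and 11.85 in shRNA3T, and 11.30, 11.78, 13.11 and 13.05 in 4-18. Replicate 1 was the lowest array of each silenced group. The difference in shRNA3T was -1.73 ± 0.48 (adjusted p = 0.0278 by limma), and a dimmer second probe gave -0.19, which did not pass. The call was lost without any 1 CN-10 replicate or without shRNA3T replicate 1 or 4, with differences from -1.79 to -1.29 and adjusted p from 0.0522 to 0.0799.

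The smallest passing differences of shRNA3T were those of *Racgap1*, *Mcm2* and *Cdk2*. *Racgap1*, a centralspindlin subunit of cytokinesis (chr7:138366770-138366829, rn4), read 12.27, 12.60, 12.71 and 12.87 in CN-10, 11.59, 12.22, 12.11 and 11.87 in shRNA3T, 12.53, 12.78, 12.81 and 12.76 in 3-44, and 12.36, 12.03, 11.91 and 11.46 in 4-18. The shRNA3T arrays were all below the CN-10 arrays, by 0.67 ± 0.18 (adjusted p = 0.024 by limma). Without CN-10 replicate 2, 3 or 4 or shRNA3T replicate 1 or 4 the difference ranged from -0.67 to -0.55 and did not pass (adjusted p from 0.0554 to 0.076). *Mcm2* was lower by 0.75 ± 0.22 (adjusted p = 0.0422), and its shRNA3T arrays overlapped the lowest CN-10 array. That call was lost without any 1 of 10 arrays (CN-10 replicates 2 to 4, 3-44 replicates 2 to 4, shRNA3T replicates 1, 3 and 4, and 4-18 replicate 4), with differences from -0.78 to -0.61 and adjusted p from 0.051 to 0.125. *Cdk2* was lower by 0.80 ± 0.10 (adjusted p = 6.96e-05), and the 2 groups did not overlap.

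In 3-44, which carries the same shRNA3 as the pool, only 3 members passed. *Gins1* was lower, and *Kif20a* and *Cenpf* were higher, and none of the 45 passed with a common median of bright probes or in the deposited table. Of all gene names 4.69% were lower in 3-44 (7.43% of those well above background) and 3.45% were higher, so the 2.22% of members that were lower and the 4.44% that were higher lie near the background. No member changed 2-fold, against 1.47% of all gene names. *Kif20a*, a kinesin of cytokinesis (chr18:27108170-27108229, rn4), read 12.46, 12.11, 12.49 and 12.78 in CN-10, 13.62, 13.27, 12.75 and 13.08 in 3-44, 12.13, 12.17, 12.03 and 11.77 in shRNA3T, and 12.79, 12.75, 11.90 and 12.30 in 4-18. Its rise of 0.73 ± 0.21 in 3-44 was at the threshold (adjusted p = 0.0498 by limma), with 1 array inside the CN-10 range. It was lost without any 1 of 11 arrays (CN-10 replicates 1 to 3, 3-44 replicates 1, 2 and 4, all shRNA3T replicates and 4-18 replicate 4), with differences from 0.58 to 0.76 and adjusted p from 0.0571 to 0.16.

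*Cenpf*, a kinetochore protein (chr13:105921172-105921231, rn4), read 10.39, 10.00, 10.40 and 9.74 in CN-10, 11.15, 10.81, 10.88 and 10.64 in 3-44, 9.31, 9.82, 9.76 and 9.46 in shRNA3T, and 10.03, 9.44, 10.29 and 9.49 in 4-18. All 3-44 arrays were above the CN-10 arrays, by 0.73 ± 0.20 (adjusted p = 0.0384 by limma). A second probe gave 0.28 and did not pass (adjusted p = 0.267). The call was lost without CN-10 replicate 2 or 4, 3-44 replicate 1, 2 or 3, or shRNA3T replicate 4, with differences from 0.60 to 0.75 and adjusted p from 0.0512 to 0.115. A second probe of *Mcm4*, by contrast, was lower in 3-44 by 0.76 (adjusted p = 0.00335), where the brighter probe read 0.14 higher and did not pass.

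**Figure D2:**
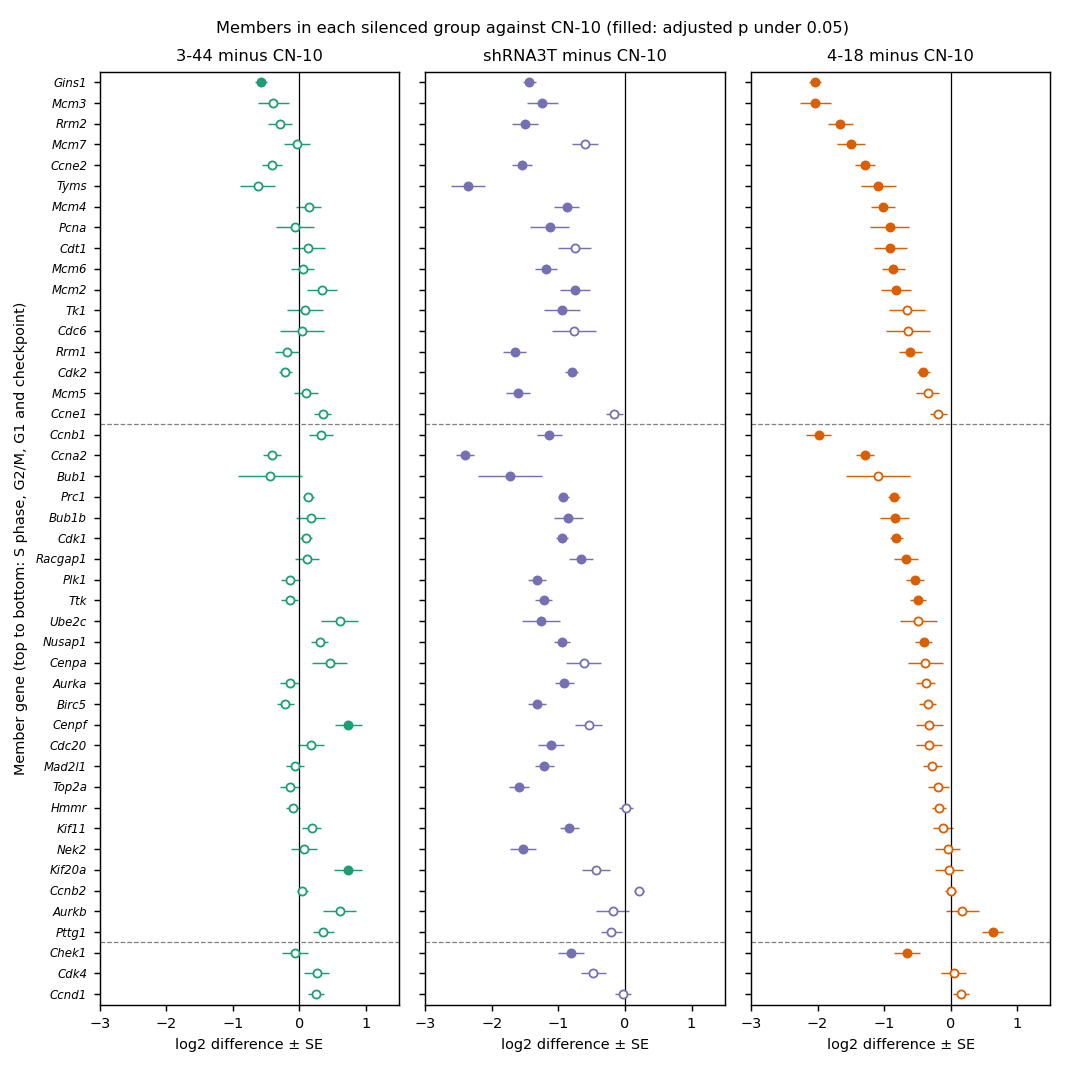
Log2 difference from CN-10 (± SE of the limma fit) for each member in 4-18, 3-44 and shRNA3T, with filled points for an adjusted p under 0.05. In shRNA3T 32 members lie filled to the left of 0, in 4-18 23 lie to the left and *Pttg1* to the right, and in 3-44 *Gins1* alone lies filled to the left.

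Set side by side, S phase and G2/M members differed most in 4-18. The median log2 difference from CN-10 was -0.90 for S phase and -0.37 for G2/M in 4-18, -1.13 and -0.95 in shRNA3T, and -0.04 and 0.11 in 3-44, with medians over all gene names of 0.00, -0.01 and -0.01. The S phase median minus the G2/M median was -0.53 in 4-18, -0.18 in shRNA3T and -0.14 in 3-44, against an SD of 0.162 for this difference between arrays of 1 group. By array, the S phase median was -1.18, -0.89, -0.83 and -0.83 in 4-18, -1.16, -0.86, -1.01 and -1.14 in shRNA3T, and -0.12, -0.02, -0.14 and -0.11 in 3-44, each relative to the CN-10 mean of each gene. The G2/M median was -0.25, -0.50, -0.36 and -0.53 in 4-18, -0.90, -0.82, -0.99 and -1.18 in shRNA3T, and 0.21, 0.08, 0.06 and 0.08 in 3-44. Every 4-18 array was thus lower in S phase than in G2/M, as was every 3-44 array, whereas the shRNA3T arrays went either way. The members share arrays and no test was made over them. Leaving out 4-18 replicate 1 moved the 4-18 S phase median to -0.72 and its gap to the G2/M median to -0.30, and without shRNA3T replicate 1 the shRNA3T gap was 0.019.

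The 4-18 clone was also lower than the 3-44 clone, where 11 S phase members, 11 G2/M members and *Chek1* were lower (23 of 45) and none was higher. Of all gene names 10.1% were lower in 4-18 than in 3-44 and 12.4% were higher, and at 2-fold or more 11 members were lower against 4.98% of gene names in either direction. The medians were -0.87 for S phase and -0.49 for G2/M. At the brightest probe of each gene, *Ccnb1* had the largest difference of this contrast, 4.95-fold lower in 4-18 (-2.31 ± 0.19, adjusted p = 4.68e-07 by limma). It was followed by *Mcm3* (-1.64), *Gins1* (-1.46), *Mcm7* (-1.46) and *Rrm2* (-1.36). A dimmer second probe of *Rrm2* gave -2.42 (adjusted p = 2.02e-07 by limma). The passing G2/M members with the next largest differences were *Ube2c* (-1.09), a ubiquitin-conjugating enzyme of the anaphase-promoting complex, and *Cenpf* (-1.05), although a second probe of *Cenpf* gave -0.31 and did not pass (adjusted p = 0.113).

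Between the clone and the pool of the same shRNA3, most of the list differed. Here 15 S phase members, 21 G2/M members, *Cdk4* and *Chek1* were higher in 3-44 than in shRNA3T, 38 of 45, and none was lower. The count was 25 with arrays set to a common median of bright probes and 13 in the deposited, unscaled table, with none lower in either. Of all gene names 5.36% were higher in 3-44 (8.43% of those well above background) and 5.57% were lower, and at 2-fold or more 28 members were higher against 2.12% of gene names in either direction. The medians were 1.04 for S phase and 1.11 for G2/M. *Ccna2* (1.99), *Ube2c* (1.86), *Tyms* (1.74) and *Mcm5* (1.70) had the largest differences. The members left were *Mcm7*, *Cdc6*, *Aurkb*, *Bub1*, *Ccnb2*, *Hmmr* and *Ccnd1*. Same-numbered arrays of these 2 groups deviated together, and with the replicate number as a block *Bub1* (1.29, adjusted p = 0.11 by limma as reported) passed as well (adjusted p = 0.0302). Clone against pool and the stage of selection cannot be told apart in this contrast.

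In 4-18 against shRNA3T the list divided by gene. In all, 4 members were lower in 4-18 (*Gins1*, *Mcm3*, *Mcm7* and *Ccnb1*) and 16 were higher, 4 of S phase (*Cdk2*, *Mcm5*, *Rrm1* and *Tyms*) and 12 of G2/M (*Aurka*, *Birc5*, *Ccna2*, *Cdc20*, *Kif11*, *Mad2l1*, *Nek2*, *Nusap1*, *Plk1*, *Pttg1*, *Top2a* and *Ttk*). Of all gene names 9.24% were lower in 4-18 and 11.3% were higher (16.9% of those well above background), and at 2-fold or more 6 members were higher against 4.56% of gene names in either direction. The medians were 0.13 for S phase, which turned to -0.053 without 4-18 replicate 2, and 0.54 for G2/M. In the deposited, unscaled table these medians were -0.42 and -0.08, 5 members were lower and 1 was higher, and *Cdk2*, *Aurka*, *Nusap1*, *Kif11* and *Ttk* turned to -0.28, -0.19, -0.17, -0.077 and -0.0011. In that table the gene names well above background on all 16 arrays also lay at -0.55 in the median, and relative to it the members stood at 0.13 for S phase and 0.47 for G2/M. With the arrays of the same table set to a common median of bright probes the medians were 0.31 and 0.64, with 4 members lower and 21 higher. Over all gene names, by contrast, the median was 0.23 in the deposited table and 0.95 after that shift. Both member medians lay below it in each case. The sign relative to other genes thus depends on the reference set, and the reason was not tested.

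Among the members lower in 4-18 than in shRNA3T, *Gins1* differed by -0.60 ± 0.09 (adjusted p = 0.000239 by limma), *Mcm7* by -0.89 ± 0.21 (adjusted p = 0.0083) and *Ccnb1* by -0.84 ± 0.19 (adjusted p = 0.00423), each without overlap between the groups. *Mcm3* differed by -0.79 ± 0.23 (adjusted p = 0.0256) with overlap, and by -0.05 at its second probe. Its call was lost without shRNA3T replicate 1 or 2 or 4-18 replicate 1, 3 or 4, with differences from -0.78 to -0.58 and adjusted p from 0.0563 to 0.0779. At the brighter probe, the members that were 2-fold or more higher in 4-18 were *Nek2* (1.49), *Top2a* (1.41), *Tyms* (1.27), *Mcm5* (1.26), *Ccna2* (1.12) and *Rrm1* (1.05). The second probe of *Nek2* gave 0.26 and did not pass (adjusted p = 0.271), and that of *Top2a* gave 0.58 (adjusted p = 0.0313). *Rrm1* read 10.27, 10.22, 9.81 and 9.82 in CN-10, 10.25, 9.75, 9.65 and 9.74 in 3-44, 8.0, 8.52, 8.57 and 8.41 in shRNA3T, and 9.62, 9.08, 9.66 and 9.34 in 4-18. For *Mcm5* the 4-18 arrays read 10.76, 11.09, 11.20 and 11.08, close to the 11.79, 11.27, 11.33 and 11.51 of 3-44. For both genes 4-18 lay between shRNA3T and CN-10.

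**Figure D3:**
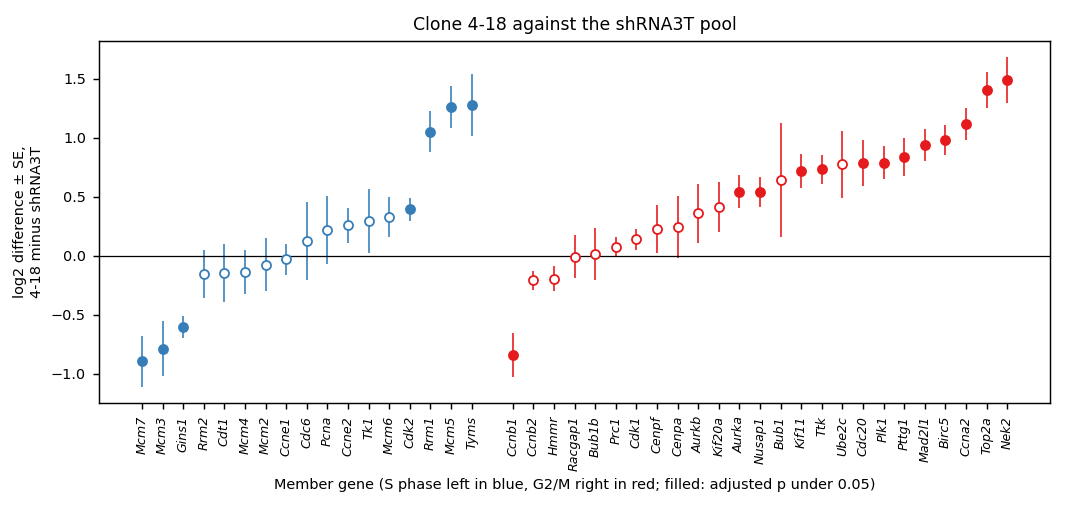
Log2 difference of 4-18 minus shRNA3T (± SE) for each member, S phase in blue and G2/M in red, with filled points for an adjusted p under 0.05. *Gins1*, *Mcm3*, *Mcm7* and *Ccnb1* lie filled below 0 and 16 members lie filled above it, while both medians were below 0 in the deposited table, where arrays were not scaled to each other.

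**Figure D4:**
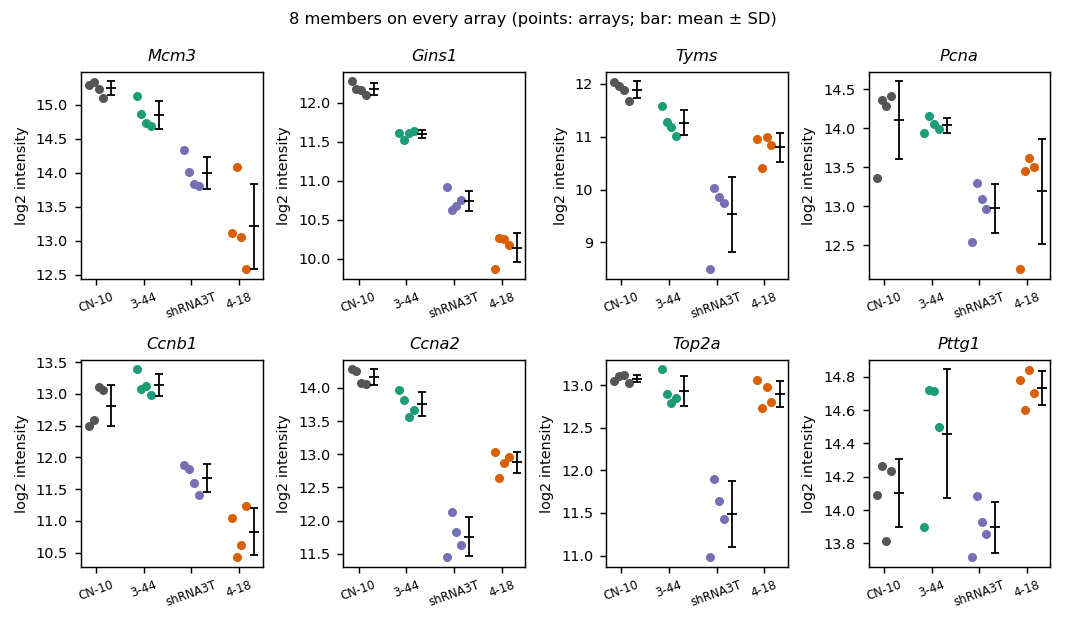
Normalized log2 intensity of 4 S phase members (*Mcm3*, *Gins1*, *Tyms*, *Pcna*) and 4 G2/M members (*Ccnb1*, *Ccna2*, *Top2a*, *Pttg1*) on each array, with the mean ± SD of each group. *Gins1* steps down from CN-10 (mean 12.18) to 4-18 (mean 10.14), whereas *Top2a* at the brighter of its 2 probes is low in shRNA3T (mean 11.49) and overlaps CN-10 in 4-18.

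*Nek2*, a kinase of centrosome separation, and *Top2a*, topoisomerase II, each had a pair of probes that differed on 4-18. The brighter probe of *Top2a* read 13.05, 13.11, 13.12 and 13.03 in CN-10, 13.19, 12.90, 12.79 and 12.85 in 3-44, 10.98, 11.90, 11.64 and 11.43 in shRNA3T, and 13.05, 12.73, 12.98 and 12.80 in 4-18. The other probe read 10.46, 10.68, 10.46 and 10.45 in CN-10, 10.51, 10.05, 10.02 and 9.99 in 3-44, 9.57, 9.23, 8.97 and 8.85 in shRNA3T, and 9.60, 9.96, 10.06 and 9.32 in 4-18. Both were lowest in shRNA3T, but 4-18 overlapped CN-10 at the brighter probe (-0.18, adjusted p = 0.45 by limma) and was below it at the other (-0.78, adjusted p = 0.00484). With signals scaled at the 75th percentile (-0.44) and in the deposited table (-0.97) the brighter probe of *Top2a* passed too. These 2 probes lie 3244 bases apart on chromosome 10. The brighter *Nek2* probe read 9.98, 9.88, 9.59 and 9.40 in CN-10, 10.20, 9.56, 9.59 and 9.79 in 3-44, 7.75, 8.42, 8.34 and 8.22 in shRNA3T, and 9.91, 9.22, 9.85 and 9.69 in 4-18. The dimmer one read 8.99, 9.42, 9.17 and 9.27 in CN-10, 9.61, 9.08, 9.04 and 9.24 in 3-44, 8.2, 8.07, 8.08 and 7.97 in shRNA3T, and 8.46, 7.90, 8.47 and 8.52 in 4-18. In 4-18 against CN-10 they gave -0.05 (adjusted p = 0.905) and -0.87 (adjusted p = 0.000504). The 2 *Nek2* probes are printed here because they share 44 of their 60 bases (rn4) and still differ.
Nek2 dimmer probe (chr13:107907177-107907236, plus strand): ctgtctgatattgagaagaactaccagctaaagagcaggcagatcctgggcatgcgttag
Nek2 brighter probe (chr13:107907193-107907252, plus strand): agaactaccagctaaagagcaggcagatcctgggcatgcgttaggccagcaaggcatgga

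Of the 10 members with 2 probes, further ones differed in a call. In 4-18 against shRNA3T, *Ccna2* gave 1.12 at the brighter probe and 0.16 at the other (adjusted p = 0.693 by limma), *Rrm2* gave -0.15 and -0.89 (adjusted p = 0.00219 at the other), and *Cenpf* gave 0.22 and 0.72 (adjusted p = 0.00117 at the other). *Cenpf* in shRNA3T against CN-10 gave -0.55, which did not pass, and -0.75 (adjusted p = 0.00145). In 4-18 against 3-44 *Nek2* gave -0.12 and -0.91 (adjusted p = 0.000405 at the other). The reason for these differences between probes was not tested.

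The G1 cyclin *Ccnd1* (chr1:205361630-205361689, rn4) did not follow the list. It read 13.26, 13.21, 13.02 and 13.11 in CN-10, 13.63, 13.24, 13.24 and 13.50 in 3-44, 13.52, 13.02, 12.92 and 13.03 in shRNA3T, and 13.28, 13.25, 13.42 and 13.30 in 4-18. The groups overlapped, and no contrast passed, with differences from CN-10 of 0.16, 0.25 and -0.03 (SE 0.12 each) in 4-18, 3-44 and shRNA3T. *Cdk4*, its kinase partner, differed from CN-10 by 0.05, 0.26 and -0.48, and none passed. *Ccnb2* and *Hmmr* were near background. *Ccnb2* was well above background on 1 array of 3-44 and 3 of shRNA3T and on none of CN-10 or 4-18, and *Hmmr* on 3 arrays of CN-10 and 1 of shRNA3T. Their levels are therefore given further only among the flagged arrays and the alternatives. The other 43 members were well above background on all 16 arrays.

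Wider lists of genes in the same processes were compared with CN-10 in the same way, where 12.4% of all gene names were lower in 4-18, 7.04% in shRNA3T and 4.69% in 3-44. Of 42 further replication factors, 24 were lower in 4-18, 27 in shRNA3T and 3 in 3-44, with none, none and 2 higher and medians of -0.68, -0.71 and -0.01. *Rfc4*, a subunit of the clamp loader, differed by -1.31, -1.78 and -0.98 in 4-18, shRNA3T and 3-44 and passed in each (adjusted p = 0.00324, 0.000609 and 0.0469 by limma). In 3-44 its call was lost without any 1 of 11 arrays (all of CN-10 and 3-44, shRNA3T replicate 4, and 4-18 replicates 2 and 4), with adjusted p from 0.0524 to 0.117. *Rfc2* (-1.43 and -1.13 in 4-18 and shRNA3T) and *Dut*, the dUTPase (-0.89 and -1.50), passed in both of those groups. Of 48 further mitosis factors, 27 were lower in 4-18, 34 in shRNA3T and 2 in 3-44, with 1, none and 3 higher and medians of -0.69, -0.77 and -0.04. *Cdca3*, a mitotic entry factor, differed by -1.57 and -1.27, and *Cdca5*, sororin of the cohesin complex, by -1.50 and -1.23, in 4-18 and shRNA3T. *Tpx2*, the activator of Aurka on the spindle, differed by -1.60 in shRNA3T and by -0.67 in 4-18, where it did not pass (adjusted p = 0.0634) but did without shRNA3T replicate 2 or 3 or 4-18 replicate 2 (adjusted p from 0.0107 to 0.0489). The 3-44 counts of both lists, 3 of 42 and 2 of 48 lower, lie near the share of all gene names. The wider replication and mitosis lists thus had near-equal medians in 4-18 (-0.68 and -0.69), unlike the S phase and G2/M members (-0.90 and -0.37). In 4-18 against shRNA3T their medians were 0.13 and 0.16, where the members had 0.13 and 0.54.

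Regulators of the cycle were counted beside the same shares of all gene names, with 11.6%, 5.13% and 3.45% higher in 4-18, shRNA3T and 3-44. Of 14 E2F and MuvB factors 6 were lower in 4-18 and 6 in shRNA3T, and none was higher in either. *E2f1* differed by -2.10 ± 0.25 in 4-18 (adjusted p = 1.77e-05 by limma) and by -0.66 ± 0.25 in shRNA3T, where it did not pass (adjusted p = 0.11) but did without 4-18 replicate 4 (adjusted p = 0.00972), and 4-18 was below shRNA3T by 1.45 (adjusted p = 0.000633). *Foxm1* was lower in both, by 1.02 in 4-18 (adjusted p = 6.85e-05) and by 1.21 in shRNA3T (adjusted p = 3.23e-05), as was *E2f8*, a repressor of the E2F family (-1.21 and -1.16). Of 8 G1 cyclins and kinases 3 were lower in 4-18 and 2 in shRNA3T, among them *Cdk6* (-1.31 and -0.93) and *Cks1b* (-1.23 and -0.76), while *Ccnd3* passed in 4-18 alone (-0.70). Of 20 checkpoint and fork repair genes 6 were lower and 2 higher in 4-18, and 7 were lower in shRNA3T. Among them *Mdc1* differed by -0.76 in 4-18 and by -1.19 in shRNA3T, and *Fancd2* by -1.19 in 4-18 and by -0.81 in shRNA3T, which did not pass as reported but did without CN-10 replicate 3 (-1.04). Of 22 inhibitors and brakes 2 were lower and 3 higher in 4-18, 4 lower and 5 higher in shRNA3T, and 1 lower and 3 higher in 3-44. In 4-18 these counts of inhibitors lie near the shares of all gene names. *Ccng2*, an atypical cyclin that is high in quiescent cells, was higher in all 3, by 1.27 in 4-18 (adjusted p = 7.09e-06), 0.91 in shRNA3T (adjusted p = 0.000369) and 0.83 in 3-44 (adjusted p = 0.00125). In the deposited table these differences of *Ccng2* were 0.64, 0.93 and 0.74, and none passed. *Gadd45g*, a stress response gene, was higher in shRNA3T by 1.28 (adjusted p = 1.88e-05), and *Gadd45b* in 4-18 by 1.03 (adjusted p = 0.0024; 0.29 and not passing in the deposited table).

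**Figure D5:**
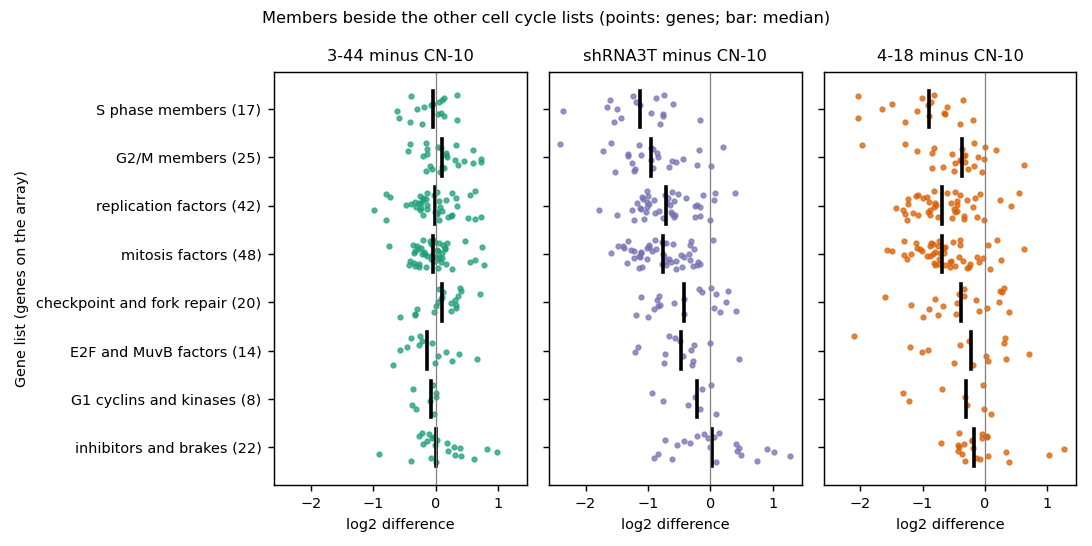
Log2 difference from CN-10 of each gene of the S phase and G2/M members and of 6 wider lists (points are genes, bars the median) in 4-18, 3-44 and shRNA3T. The bars of replication and mitosis lists lie below 0 in 4-18 and shRNA3T (-0.68 to -0.77 for the wider lists) and near 0 in 3-44, and those of inhibitors lie near 0 in each.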

How the data were processed

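Total RNA of 16 cultures of rat hepatoma H35 cells (4 groups of 4) was hybridised by the authors to one-colour Cy3 Agilent rat arrays. The spots were quantified with Feature Extraction 10.7.3.1, which gave a deposited intensity per spot, with its local background and flags. The deposited series table holds log2 values that had lost their decimal points. With these put back it correlated at 1 with log2 normexp of the median signal on every array, so it was not scaled between arrays, and it was used as an alternative.

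Here, mean intensities were corrected with normexp (offset 50, median local background) and quantile normalized in R 4.3.3 with limma 3.58.1. Spots marked as outliers were left out and repeat spots of a probe were averaged. The limma model had 1 mean per group over the 16 arrays, and empirical Bayes gave log2 differences, with Benjamini-Hochberg adjustment over 30367 probes. The scripts were tested on simulated data. For genes with more than 1 probe that with the highest mean intensity stands for the gene, which passes with adjusted p under 0.05. The precision is limited by 4 arrays per group. For single genes a two-sided exact permutation test of 4 against 4 arrays can go no lower than 0.0286.

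The members and lists were chosen with earlier results of these data known. Values on every array are given for *Pcna*, *Ccnd1*, *Cdk1*, *Ccnb1* and *Mcm2*, the 5 lowest and 5 highest signed differences among those passing in 4-18, and the 3 and 3 of the same kind in 3-44 and in shRNA3T, each against CN-10. *Mcm5*, *Rrm1*, *Top2a* and *Nek2* were added after their values were seen. From each other list the 3 largest passing differences are named, except for 1 gene that is not reported here. Of the 55 member probes 51 matched a RefSeq accession, each with the same symbol. Probe positions are those of the array design on rn4, and no annotation of that build was used here. Promoters came from RefSeq on GRCr8.

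Deviations from the group means correlated above 0.1 in 15 of 24 pairs of same-numbered arrays of different groups (from -0.13 to 0.50, median 0.155), against 13 of 72 pairs of other numbers (median -0.032). Between 3-44 and shRNA3T all 4 same-numbered pairs did (from 0.10 to 0.32), and in each other contrast at least 1 pair did not. The main values of every contrast come from the fit without pairing, and a replicate block was run as an alternative. Alternatives covered background correction, scaling, filters, probe choice, arrays in the fit, array weights, the trend, the threshold and each array left out.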

Additional observations from a re-analysis of the deposited data

Results flagged for a closer look

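In 11 of 178 sets of 4 arrays (1 member in 1 group), 1 array lay far from the other 3, by a gap test that chance alone meets in about 1 of 20 sets. Of these, 7 were replicate 1 arrays. *Pcna* read 13.37 on CN-10 replicate 1, where the others read 14.29 to 14.40, and 12.19 on 4-18 replicate 1, where the others read 13.44 to 13.61. In 3-44, replicate 1 stood apart for *Mcm2* (13.64, others 13.17 to 13.21), *Bub1* (11.85, others 13.21 to 13.45), *Racgap1* (12.53, others 12.76 to 12.81) and *Prc1* (12.63, others all 12.53). *Ccnb2*, near background, read 6.46 on CN-10 replicate 1, where the others read 6.24 to 6.26. The remaining 4 were *Mcm4* on 4-18 replicate 2 (12.77, others 12.03 to 12.11), *Aurkb* on CN-10 replicate 4 (9.77, others 9.07 to 9.16) and on 3-44 replicate 2 (9.20, others 10.02 to 10.17), and *Cenpa* on CN-10 replicate 3 (8.76, others 9.83 to 9.90).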

How the results depend on the processing

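The deposited table, left unscaled, moved the counts most often among the scalings. There the count of passing members was 34, all lower, in 4-18 against CN-10 (24 as reported), 33 in 4-18 against 3-44 (23), 16 in shRNA3T against CN-10 (32 as reported), 0 in 3-44 against CN-10 (3), 6 in 4-18 against shRNA3T (20) and 13 in 3-44 against shRNA3T (38). The S phase and G2/M medians there were -1.56 and -1.05 in 4-18 against CN-10, -1.32 and -1.1 against 3-44, 0.90 and 0.97 in 3-44 against shRNA3T, and turned to -0.42 and -0.077 in 4-18 against shRNA3T, as did *Nusap1* (-0.17), *Cdk2* (-0.28), *Aurka* (-0.19), *Kif11* (-0.077), *Ttk* (-0.0011) and *Dut* (-0.12). Against CN-10 *Pttg1* turned to -0.072 and *Gadd45g* to -0.68 in 4-18, and *Ccng2* to -0.099 against 3-44. All gene names shifted by 0.13 in the median in 4-18 against CN-10 in that table, and those well above background on all arrays by -0.54. With scanner-processed signals at the 75th percentile the medians were -1.05 and -0.56 in 4-18 against CN-10, the G2/M median -0.67 against 3-44 and 0.43 against shRNA3T, and 1 member passed in 3-44 against CN-10, while *Aurkb* turned to -0.84 in 4-18. With a common median of bright probes they were 0.30 and 0.70 in 4-18 against shRNA3T, the S phase median was -0.74 against 3-44, and 0 members passed in 3-44 against CN-10 and 25 in 3-44 against shRNA3T. That scaling also turned *Hmmr* to 1.01, 1.03 and 1.14 in 4-18 against CN-10, 3-44 and shRNA3T, *Ccnb2* to 1.09 and 1.12 against 3-44 and shRNA3T, and *Cdca5* to 0.13 against shRNA3T. With it all gene names shifted by 0.84, 0.82 and 0.95 in the median in 4-18 against CN-10, 3-44 and shRNA3T. Both filters on dim probes gave a G2/M median of -0.65 in 4-18 against 3-44. Array weights gave 9 members in 3-44 against CN-10, and in 3-44 against shRNA3T an S phase median of 0.91 and a gap of -0.24. At 2-fold the counts were 9 in 4-18, 0 in 3-44 and 20 in shRNA3T against CN-10, and 11 and 6 in 4-18 against 3-44 and shRNA3T. At an adjusted p under 0.01 they were 15 in 4-18 and 1 in 3-44 against CN-10.

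With 1 array left out at a time, counts ranged from 21 to 26 in 4-18, from 1 to 4 in 3-44 (1 without CN-10 replicate 2 or shRNA3T replicate 4) and from 26 to 33 in shRNA3T against CN-10, and from 19 to 26, from 19 to 21 and from 31 to 39 in 4-18 against 3-44, 4-18 against shRNA3T and 3-44 against shRNA3T. S phase medians ranged from -1.04 to -0.72 in 4-18, from -0.18 to 0.017 in 3-44 and from -1.19 to -0.99 in shRNA3T against CN-10. In 4-18 against 3-44 the G2/M median ranged from -0.61 to -0.37. In 4-18 against shRNA3T the S phase median ranged from -0.053, without 4-18 replicate 2, to 0.24. The gap between S phase and G2/M ranged from -0.70 to -0.30 in 4-18, from -0.26 to 0.019 in shRNA3T (0.019 without shRNA3T replicate 1) against CN-10, from -0.52 to -0.19 (without 4-18 replicate 1) in 4-18 against 3-44 and from -0.64 to -0.30 in 4-18 against shRNA3T.

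Chosen after seeing the data, the deposited table without 4-18 replicate 4, which stood apart in it, gave 38, 1 and 25 members in 4-18, 3-44 and shRNA3T against CN-10, and 39, 10 and 25 in 4-18 against 3-44, 4-18 against shRNA3T and 3-44 against shRNA3T. There the S phase and G2/M medians were -1.71 and -1.06 in 4-18 against CN-10, -1.57 and -1.13 against 3-44, -0.60 and -0.23 against shRNA3T, and 0.90 and 0.97 in 3-44 against shRNA3T. In it *Pttg1* (-0.048), *Ccnd1* (-0.59) and *Gadd45g* (-0.73) turned in 4-18 against CN-10, *Ccng2* (-0.24) against 3-44, and *Cdk2* (-0.31), *Aurka* (-0.16), *Kif11* (-0.25), *Nusap1* (-0.12), *Prc1* (-0.68), *Ccnd1* (-0.55) and *Dut* (-0.17) against shRNA3T, and *Pdrg1* passed in 4-18 (-1.65). With all 16 arrays of that table set to a common median of bright probes, none of these turned, 0 members passed in 3-44 against CN-10, and the S phase median was -0.73 in 4-18 against 3-44 and 0.31 against shRNA3T. *Hmmr* turned to 1.03, 1.03 and 1.12 in 4-18 against CN-10, 3-44 and shRNA3T, *Ccnb2* to 1.07 and 1.13 against 3-44 and shRNA3T, and *Cdca5* to 0.17 against shRNA3T. All gene names shifted there by 0.84, 0.83 and 0.95 in the median in 4-18 against CN-10, 3-44 and shRNA3T. Leaving out all arrays numbered 1 gave 5 members in 3-44 against CN-10 and, in 4-18 against 3-44, an S phase median of -0.72 and a gap of -0.19. Leaving out 4-18 arrays 1 and 4 gave an S phase median of -0.73 against CN-10 and a gap of -0.25 against shRNA3T. *Pdrg1*, which did not pass as reported, passed with a replicate block at -0.77, -0.99 and -0.85 in 4-18, 3-44 and shRNA3T (adjusted p = 0.0176, 0.0108 and 0.0183 by limma). It also passed without the arrays numbered 1 (-0.41, -0.82 and -0.79, and 0.41 and 0.38 for 4-18 against 3-44 and shRNA3T). It passed in 4-18 at the 75th percentile (-0.82) and in the deposited table (-1.52), in shRNA3T at the 75th percentile (-0.98), and in 3-44 and shRNA3T with 8 arrays only (-0.99 and -0.85), with array weights (-0.84 and -0.77) and without 4-18 arrays 1 and 4 (-0.99 and -0.85). Without 1 array its difference ranged from -0.92 to -0.33 in 4-18 (-0.33 without 4-18 replicate 1), from -1.09 to -0.74 in 3-44 and from -0.93 to -0.72 in shRNA3T, with the latter pair passing without 4-18 replicate 1. With the replicate block the counts were 27, 4 and 34 against CN-10, and 26, 22 and 39 in the other contrasts. Not every array correlated best with its own number. Of the 45 members and the genes named from the wider lists, those given here changed direction with a passing value on either side, and no other did in the alternatives run.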
